A study of Marchantia polymorpha with 12 samples.

Results

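Among the 19421 genes measured in thalli of the liverwort Marchantia polymorpha, 110 were low in the line labelled Mperf15ko whether or not the thalli had been wounded. The level of a gene was the sum over its transcripts of the deposited TPM (a level scaled for transcript length and library depth), averaged over 3 libraries. Each of the 110 genes had a mean of 2 TPM or more in Tak-1, in wounded and in control thalli, and a ratio of means (Mperf15ko over Tak-1) of 0.25 or less in both conditions. The level in Tak-1 was met by 11367 genes. The members were thus chosen by these measured levels and ratios, whose sizes are given as description and carry no test.

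The groups were wounded Mperf15ko, wounded Tak-1, control Mperf15ko and control Tak-1, with 3 libraries each. Thalli of both genotypes grew from gemmae, the asexual propagules of the plant, and were collected at 14 days. Wounded thalli were taken 1 h after their blades had been wounded, and control thalli were collected before wounding. Each library came from 12 plants, and the labels call the replicates independent. Tak-1 is a male laboratory accession. The labels describe neither the lesion of Mperf15ko nor the number of lines behind it. MpERF15 (Mp7g09350), the AP2/ERF transcription factor in the name of the line, had 383 to 911 estimated reads in wounded Mperf15ko and 458 to 1087 in wounded Tak-1. It had 46 to 92 reads in control Mperf15ko and 51 to 59 in control Tak-1. The ranges overlapped, so reads of this gene cannot test which genotype a library holds, and directions between genotypes rest on the labels. Depth was 17.2 to 30.4 M estimated reads per library.

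Plants meet wounds and microbes with pathogenesis-related (PR) proteins, a mixed set that includes chitinases, glucanases, proteinase inhibitors and germin-like proteins. They also draw phenylalanine into phenolic compounds: phenylalanine ammonia-lyase opens the pathway, enzymes of the chalcone synthase type extend its products, and peroxidases, polyphenol oxidases and dirigent proteins act on the phenols formed. AP2/ERF factors, the family of MpERF15, include many regulators of wound and stress genes. The roles given below come mainly from seed plants, and family names come from gene symbols.

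The members were spread widely in level. Their median mean level was 1.81 TPM in wounded Mperf15ko against 14.3 TPM in wounded Tak-1, and 1.02 TPM in control Mperf15ko against 8.22 TPM in control Tak-1. The ratio ran from 0 to 0.243 in wounded thalli (median 0.119) and from 0 to 0.25 in controls (median 0.113). Over all 11367 genes expressed in Tak-1 the medians were 1.01 and 0.997. Both ratios were 0.1 or less for 31 members. In 104 of 110 members all 3 wounded Mperf15ko libraries lay below all 3 wounded Tak-1 libraries (17.7% of expressed genes), and 104 did so in controls (19.8% of expressed genes). edgeR called 103 of the 108 members it could test lower in wounded Mperf15ko (11.7% of all tested genes) and 102 lower in control Mperf15ko (14.6% of all tested genes). Because the rule used these contrasts, nothing is read from those counts. The samples were bulk thalli, in which fewer cells of a type and less RNA per cell cannot be told apart.

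**Figure D1:**
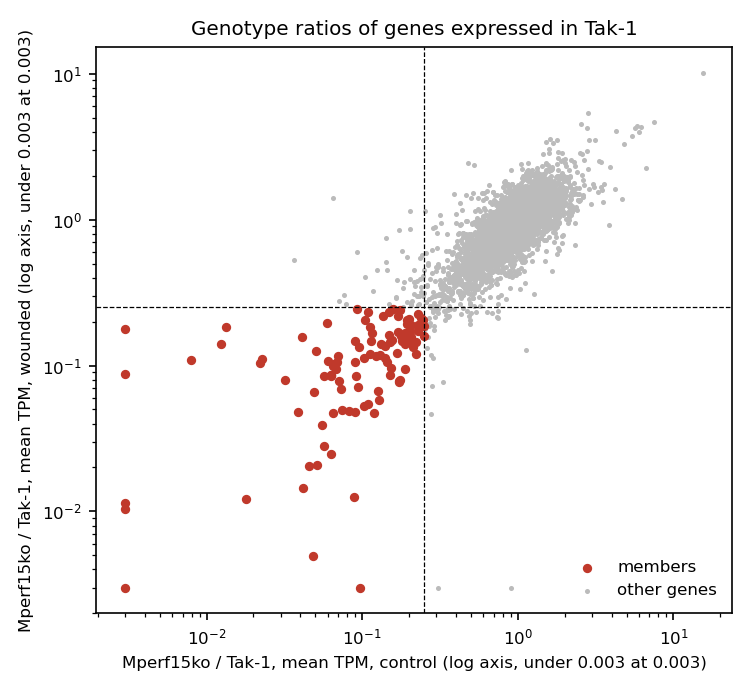
Ratio of mean TPM (Mperf15ko over Tak-1) for the 11367 genes expressed in Tak-1, controls on the x axis and wounded thalli on the y axis, both log axes. The 110 members (red) fill the corner under both dashed limits of 0.25, and the other genes (grey) centre near 1.

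Just inside the limit were MpFTPSL8 (ratios 0.207 in wounded and 0.247 in control thalli), Mp2g07160 (0.159 and 0.249) and Mp4g02020 (0.185 and 0.25). Just outside it were MpPAL7 (0.251 and 0.182), the peroxidase MpPOD54 (0.160 and 0.251) and MpPAL4 (0.177 and 0.254).

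A single gene without a symbol, Mp7g02900, had the highest level of the members in every group and made up most of their summed TPM in each Tak-1 library. Its transcript was 1059 nt long. It had 309, 436 and 343 TPM in wounded Mperf15ko libraries, against 8908, 10134 and 8755 TPM in wounded Tak-1. In controls it had 554, 795 and 455 TPM in Mperf15ko, against 10269, 11082 and 11572 TPM in Tak-1. The genotypes were far apart in every library: the gene ranked 212 to 499 among all genes in Mperf15ko libraries and 3 to 4 in Tak-1 libraries. Without it, the other members summed to 520 to 683 TPM in wounded Mperf15ko against 4319 to 4915 TPM in wounded Tak-1, and to 320 to 639 TPM in control Mperf15ko against 2639 to 3390 TPM in control Tak-1. After wounding Mp7g02900 fell by 0.72 on the log2 scale in Mperf15ko (SE 0.18, edgeR adjusted p = 0.0053), while its change of -0.26 in Tak-1 did not pass (adjusted p = 0.26). The difference between these responses, which is also the difference of the ratios that the rule bounded, did not pass either (-0.47, adjusted p = 0.51).

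Of the 110 members, 44 (40%) had a symbol, compared with 18.7% of expressed genes, and those 44 fell into 22 of 40 gene families listed by symbol. Of these lists, 14 were added later from the members' own symbols. That every named member falls into a list was thus fixed in advance, and nothing is read from it. No member was listed among AP2/ERF, WRKY, NAC, bHLH or MYB factors, lipoxygenases, CYP74 enzymes, glutathione S-transferases or ABC transporters. Those lists held 12, 10, 7, 32, 37, 9, 2, 30 and 66 expressed genes, in that order. With 110 members among 11367 expressed genes, and 66 members in no list for want of a symbol, nothing is read from these zeros. The 18 lists without a member also included expansins, protein kinases, PPR proteins and glycoside hydrolase family 18.

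PR proteins and cell wall hydrolases made up the largest block of named members. All lists with a member in this block, except PR1, were among those added later from the members' symbols. MpPR4, of a chitin-binding family and the single gene with that name, had 9.44, 8.74 and 9.29 TPM in wounded Mperf15ko against 81.0, 54.4 and 59.2 TPM in wounded Tak-1. In controls it had 13.5, 12.9 and 17.9 TPM in Mperf15ko against 57.8, 61.1 and 90.8 TPM in Tak-1. The genotypes did not overlap in either condition. PR1 proteins, secreted proteins of the CAP superfamily, gave 3 members (MpPR1a, MpPR1o and MpPR1w) from 11 expressed genes. MpPR1o had 1.52, 1.42 and 1.66 TPM in wounded Mperf15ko against 27.4, 33.2 and 23.8 TPM in wounded Tak-1. Of the 12 other tested PR1 genes, 6 were called lower and 0 higher in wounded Mperf15ko (11.7% and 11.8% of all tested genes). In control Mperf15ko 7 were called lower and 0 higher (14.6% and 13.6% of all tested genes).

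Members of the PR6 family, which in seed plants holds proteinase inhibitors, were MpPR6b and its next-ID neighbour MpPR6c, from 3 genes of that name. MpPR6b had 8.22, 5.69 and 9.40 TPM in wounded Mperf15ko against 60.5, 81.9 and 58.4 TPM in wounded Tak-1, and 3.51, 1.74 and 1.34 TPM in control Mperf15ko against 23.3, 32.1 and 38.8 TPM in control Tak-1. It was higher after wounding in both genotypes (log2 fold change 1.79, SE 0.36, adjusted p = 0.0013 in Mperf15ko and 1.07, SE 0.25, adjusted p = 0.0041 in Tak-1). In MpPR6c the ratios were 0.0479 in wounded and 0.0385 in control thalli, and neither wound response passed.

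Chitinases of glycoside hydrolase family 19, which cut the chitin of fungal walls, contributed 4 of 12 expressed genes: MpGH19.3, MpGH19.6, MpGH19.7 and MpGH19.13. The most abundant, MpGH19.7, had 13.7, 24.7 and 13.9 TPM in wounded Mperf15ko against 119, 96.8 and 89.9 TPM in wounded Tak-1. Its next-ID neighbour MpGH19.6 was the one of the 4 called higher after wounding, by 1.11 in Mperf15ko (SE 0.29, adjusted p = 0.0069) and 0.94 in Tak-1 (SE 0.22, adjusted p = 0.003). MpGH19.3 had 44.9, 51.8 and 42.0 TPM in wounded against 23.7, 21.5 and 33.3 TPM in control Tak-1. That change did not pass (0.80, adjusted p = 0.1). Among the 9 tested genes of this list that were not members, 2 were called lower and 0 higher in wounded Mperf15ko, and 5 lower and 0 higher in control Mperf15ko. For these and the family counts that follow, the shares over all tested genes were 11.7% lower and 11.8% higher in wounded thalli and 14.6% lower and 13.6% higher in controls. Family 17, which holds β-1,3-glucanases, gave MpGH17.7 and MpGH17.10 from 17 expressed genes, and family 16 gave MpGH16.26 from 21. Of the 22 other tested genes of family 17, 4 were called lower and 1 higher in wounded Mperf15ko, and 2 lower and 2 higher in control Mperf15ko. For the 25 of family 16 the counts were 4 lower and 4 higher in wounded, and 8 lower and 2 higher in control Mperf15ko. MpGH16.26 was nearly silent in wounded Mperf15ko, at 0.0752, 0.0641 and 0 TPM against 9.45, 11.2 and 7.73 TPM in wounded Tak-1. Its 2 reads in wounded and 33 in control Mperf15ko gave a ratio of depth-scaled reads of 0.0719 (95% exact counting interval 0.00836 to 0.281). The fall passed in edgeR, which does not test that ratio (adjusted p = 0.012).

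Germin-like PR15 proteins, a cupin family secreted to the wall, were members in 4 of 5 expressed cases and combined low levels in Mperf15ko with steep wound induction. MpPR15h had 3.36, 4.42 and 3.47 TPM in wounded Mperf15ko against 36.7, 56.5 and 38.2 TPM in wounded Tak-1, and 0.810, 1.14 and 0.569 TPM in control Mperf15ko against 8.99, 13.9 and 17.1 TPM in control Tak-1. The wounded Mperf15ko libraries thus lay above their own controls and below the Tak-1 controls. MpPR15h rose by 2.15 in Mperf15ko (SE 0.37, adjusted p = 0.00039) and by 1.70 in Tak-1 (SE 0.25, adjusted p = 8.9e-05). MpPR15e had 4.68, 3.62 and 5.72 TPM in wounded Mperf15ko and 0, 0 and 0.140 TPM in its controls, or 85 reads against 1 (ratio of depth-scaled reads 101, 95% exact counting interval 17.6 to 4029). The rise passed in edgeR, which does not test that ratio (adjusted p = 9.4e-06). In Tak-1 MpPR15e rose by 2.86 (SE 0.32, adjusted p = 3.8e-06). MpPR15b and MpPR15d were called higher after wounding in both genotypes too. The call of MpPR15b in Mperf15ko (3.65, adjusted p = 0.012) ended without wounded Mperf15ko replicate 2 (3.24, adjusted p = 0.053).

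**Figure D2:**
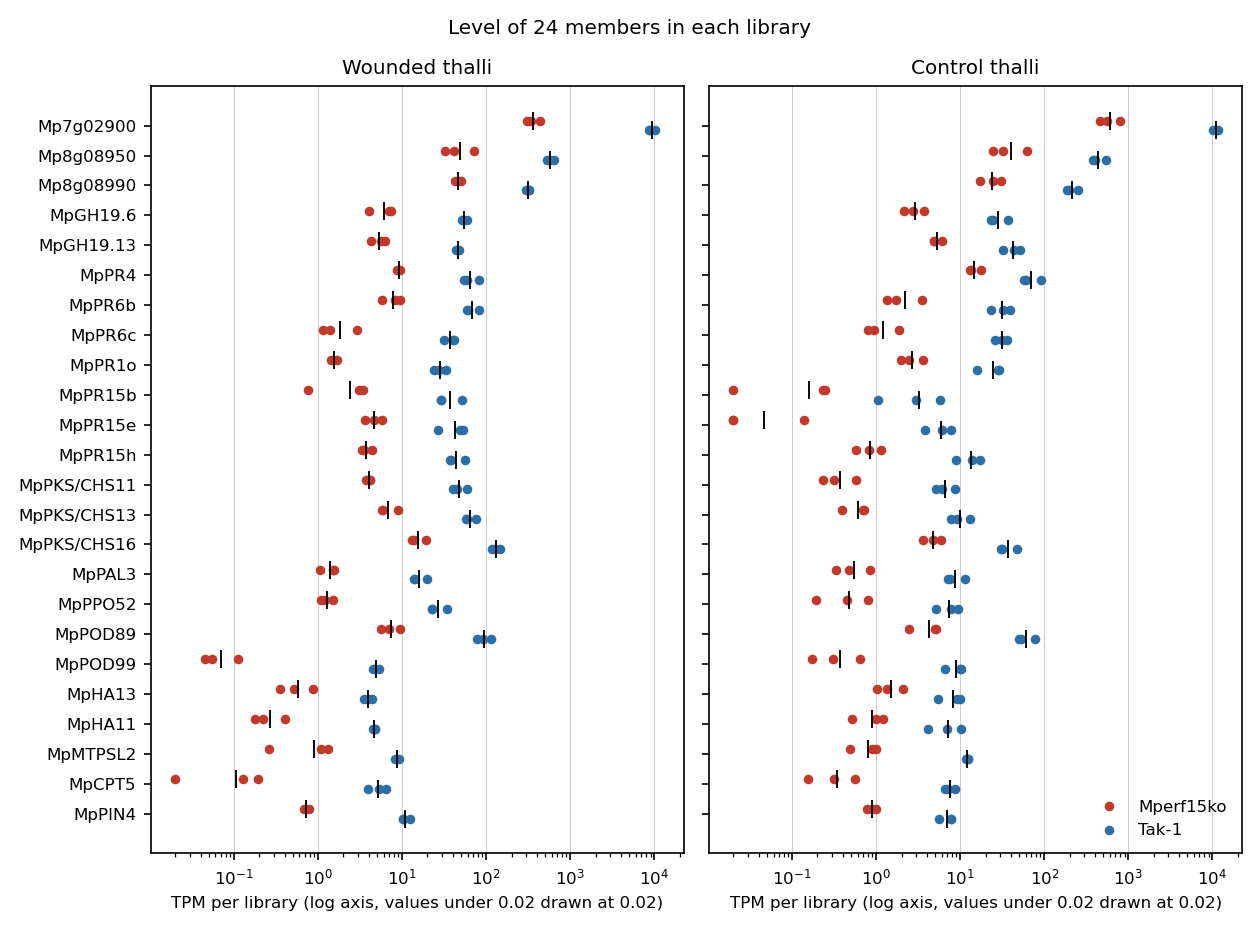
TPM in each library (points, log axis) of 24 members, wounded thalli on the left and controls on the right, with Mperf15ko in red above Tak-1 in blue and group means as black ticks. Red and blue points stay apart for every gene shown, and Mp7g02900 stands above the rest at 8755 TPM or more in each Tak-1 library.

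Enzymes of phenolic metabolism formed the next block. MpPAL3, a phenylalanine ammonia-lyase, had 1.5, 1.55 and 1.05 TPM in wounded Mperf15ko against 13.9, 19.9 and 14.0 TPM in wounded Tak-1, and 0.850, 0.469 and 0.331 TPM in control Mperf15ko against 7.58, 7.15 and 11.3 TPM in control Tak-1. It rose after wounding by 1.30 in Mperf15ko (SE 0.37, adjusted p = 0.011) and by 0.85 in Tak-1 (SE 0.24, adjusted p = 0.01). The Tak-1 call ended without wounded Tak-1 replicate 2 (0.70, adjusted p = 0.053). Of the 7 other tested genes of this name, 5 were called lower and 0 higher in wounded Mperf15ko, and 4 lower and 2 higher in control Mperf15ko.

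Polyketide synthases of the chalcone synthase type gave 4 members of 17 expressed genes. MpPKS/CHS16, the most abundant, had 13.8, 19.4 and 13.0 TPM in wounded Mperf15ko against 128, 145 and 117 TPM in wounded Tak-1. In controls it had 5.85, 4.74 and 3.63 TPM in Mperf15ko against 30.1, 31.6 and 47.7 TPM in Tak-1. Every wounded Mperf15ko library was thus below every control Tak-1 library. The gene rose by 1.71 in Mperf15ko (SE 0.27, adjusted p = 0.00026) and by 1.82 in Tak-1 (SE 0.22, adjusted p = 3.6e-05).

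MpPKS/CHS11 and MpPKS/CHS13 rose by 3.40 (SE 0.36) and 3.52 (SE 0.35) in Mperf15ko, and by 2.85 (SE 0.22) and 2.67 (SE 0.23) in Tak-1. MpPKS/CHS12 rose by 1.26 in Mperf15ko (SE 0.25, adjusted p = 0.0009) and by 2.26 in Tak-1 (SE 0.20, adjusted p = 4.3e-07). Its difference between responses, made of the ratios that the rule bounded, did not pass in edgeR (-1.0, adjusted p = 0.17) and passed in DESeq2 (-1.01, adjusted p = 0.043). The 8 wound calls of these 4 genes held under all 16 alternatives run. Of 17 other tested genes of the family, 8 were called lower and 1 higher in wounded Mperf15ko, and 10 lower and 1 higher in control Mperf15ko.

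Downstream of these enzymes, MpPPO52 was the single member among 28 expressed polyphenol oxidases, which oxidise phenols to quinones. It had 1.22, 1.07 and 1.49 TPM in wounded Mperf15ko against 22.7, 34.5 and 22.7 TPM in wounded Tak-1. Its rise of 1.35 in Mperf15ko (SE 0.47, adjusted p = 0.031) was lost on leaving out replicate 2 (1.29) or 3 (0.99) of the Mperf15ko controls, or replicate 1 (1.33) or 3 (1.25) of wounded Mperf15ko. Its rise of 1.83 in Tak-1 (SE 0.27, adjusted p = 6.9e-05) held under all alternatives. Of the 41 other tested polyphenol oxidases, 18 were called lower and 1 higher in wounded Mperf15ko, and 24 lower and 0 higher in control Mperf15ko.

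Dirigent proteins steer the coupling of phenol radicals, and MpDIR33 and MpDIR51 were members from 40 expressed genes. Of the 49 other tested dirigent genes, 17 were called lower and 7 higher in wounded Mperf15ko, and 20 lower and 5 higher in control Mperf15ko. MpDIR33 had 8.37, 9.69 and 9.99 TPM in wounded Mperf15ko against 34.0, 48.7 and 37.7 TPM in wounded Tak-1, and 0.793, 0.704 and 0.546 TPM in control Mperf15ko against 5.50, 5.81 and 7.37 TPM in control Tak-1. Here the wounded Mperf15ko libraries were above all control Tak-1 libraries. It rose by 3.77 in Mperf15ko (SE 0.22, adjusted p = 6.1e-09) and by 2.67 in Tak-1 (SE 0.16, adjusted p = 8.8e-09). The difference of 1.09, likewise made of the bounded ratios, did not pass in edgeR (adjusted p = 0.089) and passed in DESeq2 (1.09, adjusted p = 0.037). MpDIR51 was called in both genotypes. Its call in Mperf15ko (1.18, adjusted p = 0.034) was lost on leaving out replicate 2 (1.29) or 3 (0.91) of the Mperf15ko controls, or replicate 1 (0.86) or 3 (1.01) of wounded Mperf15ko.

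Class III peroxidases, secreted enzymes that oxidise phenols with hydrogen peroxide, gave MpPOD89, MpPOD99, MpPOD108 and MpPOD166 from 91 expressed genes. Of the 118 other tested peroxidases, 43 were called lower and 10 higher in wounded Mperf15ko, and 50 lower and 9 higher in control Mperf15ko. MpPOD89 was the most abundant, with 5.52, 9.51 and 6.99 TPM in wounded Mperf15ko against 78.1, 113 and 91.6 TPM in wounded Tak-1. MpPOD99 had 0.0541, 0.0446 and 0.111 TPM in wounded Mperf15ko against 4.74, 5.27 and 4.49 TPM in wounded Tak-1. In controls MpPOD99 had 0.638, 0.173 and 0.305 TPM in Mperf15ko against 6.66, 10.3 and 9.81 TPM in Tak-1, so that both genotypes were lower after wounding. It fell by 2.44 in Mperf15ko (SE 0.66, adjusted p = 0.0075) and by 0.90 in Tak-1 (SE 0.26, adjusted p = 0.011). The fall in Mperf15ko was -1.78 without replicate 1 of its controls. In Tak-1 the call was lost on leaving out replicate 2 (-0.77) or 3 (-0.76) of the controls, or replicate 3 (-0.81) of wounded Tak-1. MpOMT4, an O-methyltransferase, and the cytochrome P450 MpCYP829-like15 were members too, and their symbols do not give their substrates. MpCYP829-like15 did not pass in Mperf15ko (adjusted p = 0.055) and fell by 1.62 in Tak-1 (SE 0.41, adjusted p = 0.0052).

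Terpenoid genes were few. MpMTPSL2, a terpene synthase of the microbial type, and its next-ID neighbour MpCPT5, a cis-prenyltransferase that builds polyprenyl chains, were both members. MpMTPSL2 had 1.09, 0.257 and 1.33 TPM in wounded Mperf15ko against 8.12, 8.77 and 9.09 TPM in wounded Tak-1, and 1.01, 0.899 and 0.493 TPM in control Mperf15ko against 12.2, 11.7 and 12.3 TPM in control Tak-1. Levels in Tak-1 were nearly even among replicates, and no wound response passed for this gene. MpCPT5 had ratios of 0.0204 in wounded and 0.0458 in control thalli. MpFTPSL8, also called MpMTPSL6 in the names table, lay just inside the limit.

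Transporters among the members were the proton pumps MpHA5, MpHA11 and MpHA13, from 10 expressed genes of that name, and MpPIN4 of the PIN auxin efflux carriers. MpHA11 and MpHA13 are next-ID neighbours. MpHA13 had 0.873, 0.516 and 0.348 TPM in wounded Mperf15ko against 3.55, 4.40 and 3.93 TPM in wounded Tak-1, and it fell after wounding by 1.37 in Mperf15ko (SE 0.38, adjusted p = 0.011) and 1.06 in Tak-1 (SE 0.30, adjusted p = 0.0097).

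MpPIN4 had 0.671, 0.714 and 0.789 TPM in wounded Mperf15ko against 10.1, 12.4 and 10.2 TPM in wounded Tak-1. In controls it had 1.01, 0.892 and 0.783 TPM in Mperf15ko against 7.78, 7.79 and 5.55 TPM in Tak-1. Among the control Tak-1 libraries MpPIN4 was lowest in replicate 3. Its change of -0.30 after wounding in Mperf15ko did not pass (adjusted p = 0.2), while in Tak-1 it rose by 0.63 (SE 0.13, adjusted p = 0.0011). The difference, again made of the bounded ratios, did not pass in edgeR (-0.93, adjusted p = 0.068) and passed in DESeq2 (-0.94, adjusted p = 0.03).

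LEA proteins, which accumulate in drying tissues, gave MpLEA-like12, MpLEA-like37, MpLEA-like45 and MpLEAL5 from 39 expressed genes. MpLEA-like37 had 1.80, 4.51 and 2.02 TPM in wounded Mperf15ko against 18.2, 17.5 and 23.3 TPM in wounded Tak-1. In controls it had 0.0397, 0 and 0.0447 TPM in Mperf15ko against 4.33, 0.839 and 1.62 TPM in Tak-1. That was 167 reads in wounded and 2 in control Mperf15ko (ratio of depth-scaled reads 99.1, 95% exact counting interval 27.0 to 825). The rise passed in edgeR, which does not test that ratio (adjusted p = 0.00021). In Tak-1 the gene rose by 3.09 (SE 0.46, adjusted p = 0.00017). Leaving out replicate 1 of the Tak-1 controls made that rise 3.91. MpLEA-like12 was at 82 against 3 reads in Mperf15ko (ratio of depth-scaled reads 32.4, interval 10.7 to 161), and its rise there passed in edgeR (adjusted p = 4.6e-05). MpLEA-like45 had 4 reads in wounded and 0 in control Mperf15ko against 391 in wounded and 136 in control Tak-1, and its rise passed in Tak-1 (1.83, SE 0.43, adjusted p = 0.0041). Of the 58 other tested LEA genes 25 were called lower and 5 higher in wounded Mperf15ko, and 28 lower and 8 higher in control Mperf15ko, where the share called higher was near that over all tested genes (13.6%). The remaining symbols were MpLTP-like72, a lipid transfer protein, and MpCupin37. Not all families with a member leaned lower. Of the 12 other tested lipid transfer genes, 0 were called lower and 4 higher in wounded Mperf15ko, and 1 lower and 2 higher in control Mperf15ko. For the 45 other tested cupins the counts were 9 lower and 7 higher in wounded, and 15 lower and 6 higher in control Mperf15ko.

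Of the 66 members without a symbol, 12 also had no entry in the names table. The highest after Mp7g02900 was Mp8g08950, with 71.8, 41.6 and 32.6 TPM in wounded Mperf15ko against 632, 569 and 525 TPM in wounded Tak-1, and 62.5, 32.0 and 24.5 TPM in control Mperf15ko against 378, 395 and 534 TPM in control Tak-1. Also high in control Tak-1 were Mp5g04660 (ratios 0.188 in wounded and 0.206 in control thalli) and its next-ID neighbour Mp5g04650 (0.211 and 0.239). So were Mp7g03030 (0.1938 and 0.1935) and Mp1g02160 (0.0527 and 0.102). Replicates of Mp1g02160 in control Tak-1 were uneven, at 195, 35.8 and 17.9 TPM. Among members with 10 TPM or more in control Tak-1, the lowest ratios included those of Mp2g13870 (0.0695 and 0.0732) and Mp7g07370 (0.0122 and 0.0178). Mp5g16220 had 10.3, 13.8 and 12.6 TPM in wounded Mperf15ko against 0.619, 1.44 and 1.04 TPM in control Mperf15ko (3.59, SE 0.24, adjusted p = 4.2e-08). In Tak-1 it had the largest fitted rise of the members tested, with 58.2, 65.8 and 56.1 TPM in wounded against 4.61, 4.77 and 6.54 TPM in control thalli (3.48, SE 0.19, adjusted p = 4.9e-09). Mp5g21770 had rises of 3.03 (SE 0.26) in Mperf15ko and 3.30 (SE 0.24) in Tak-1. Mp5g01650 fell by 1.11 in Mperf15ko (SE 0.35, adjusted p = 0.018) and by 1.07 in Tak-1 (SE 0.28, adjusted p = 0.0058). Its call in Mperf15ko was lost on leaving out replicate 3 of its controls (-1.01) or replicate 2 of its wounded libraries (-0.91).

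Rounded to whole numbers, estimated reads were 0 in all 3 control Mperf15ko libraries for 5 members and in all 3 wounded ones for 2. The 5 were Mp2g15740, Mp2g26420, Mp2g26440, MpLEA-like45 and Mp8g04940, and the 2 were Mp2g26420 and Mp4g07090. Set against a floor of 3 reads over the group, Mp2g26420 was at least 13.7-fold lower in wounded and at least 16-fold lower in control Mperf15ko than in Tak-1. Its control Tak-1 libraries had 2.33, 0 and 3.72 TPM, so that single libraries of the genotypes overlapped there. By the same floor MpLEA-like45 was at least 38.8-fold lower in control Mperf15ko. Mp2g26440, next to Mp2g26420 but for 1 gene ID, was at least 37.1-fold lower in controls and had 3 reads in wounded Mperf15ko against 335 in wounded Tak-1 (ratio of depth-scaled reads 0.0107, 95% exact counting interval 0.0022 to 0.0315). Intervals and floors cover counting error alone.

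Gene IDs run along each chromosome in steps of 10, so that members within 50 ID units lie within 5 gene IDs of each other. By that measure 40 of the 110 members (36.4%) sat in 16 runs, 12 of them pairs and 4 with 4 members, and 70 members were alone. Adjacent IDs accounted for 13 pairs. The members lay on all 8 autosomes, with 23 on chromosome 5, 22 on chromosome 2, 17 on chromosome 4 and 7 to 12 on each of the others. None lay on the male chromosome V, where 36 genes were expressed, and 1 was unplaced. Around the members, 474 expressed genes that were not members lay within 50 ID units. Their median ratios were 0.952 in wounded and 0.935 in control thalli, and 380 of them (80.2%) had both ratios between 0.5 and 2. Both ratios were 0.5 or less for 58 of them (12.2%), compared with 273 of all 11257 expressed genes that were not members (2.43%).

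The run on chromosome 4 held the 4 polyketide synthases and several phenylalanine ammonia-lyases in alternation, from Mp4g14120 to Mp4g14220. Every gene from MpPKS/CHS10 (Mp4g14100) to MpPKS/CHS16 (Mp4g14220) was lower in Mperf15ko. The members' ratios were 0.0843 to 0.118 in wounded and 0.0570 to 0.188 in control thalli. Between and beside them, MpPAL7 and MpPAL4 missed the limit narrowly, and MpPAL6 had ratios of 0.118 in wounded and 0.276 in control thalli. MpPKS/CHS14 (0.358 and 0.488) and MpPKS/CHS15 (0.424 and 0.560) were less low, and they were more abundant, at 128 and 90.2 TPM in control Tak-1. The next IDs past the run, Mp4g14230 and Mp4g14240, had ratios of 1.04 and 0.921 in wounded and 1.16 and 1.08 in control thalli.

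On chromosome 2 a run from Mp2g01610 to Mp2g01690 held MpPR15b, MpPR15d, MpPR15e and Mp2g01690. MpPR15c, which lies between the first members of this run, had 31.1 TPM in wounded Mperf15ko against 58.7 TPM in wounded Tak-1 (ratio 0.530), and 0.266 TPM in control Mperf15ko against 7.34 TPM in control Tak-1 (ratio 0.0362). It was thus low in controls and not a member. The other expressed genes within the run or just before it were MpGH18.2 (0.772 in wounded and 0.696 in control thalli), MpCupin11 (0.973 and 0.908) and MpDOXC6 (0.831 and 0.845). On chromosome 5 the adjacent Mp5g17180, Mp5g17190, Mp5g17200 and Mp5g17210 had no entry in the names table, and their mean levels in Tak-1 were between 4.38 and 9.76 TPM. The run on chromosome 8 held Mp8g08950, Mp8g08990, Mp8g09000 and Mp8g09010. There the expressed gene in between, Mp8g08960, had ratios of 0.555 in wounded and 0.491 in control thalli.

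**Figure D3:**
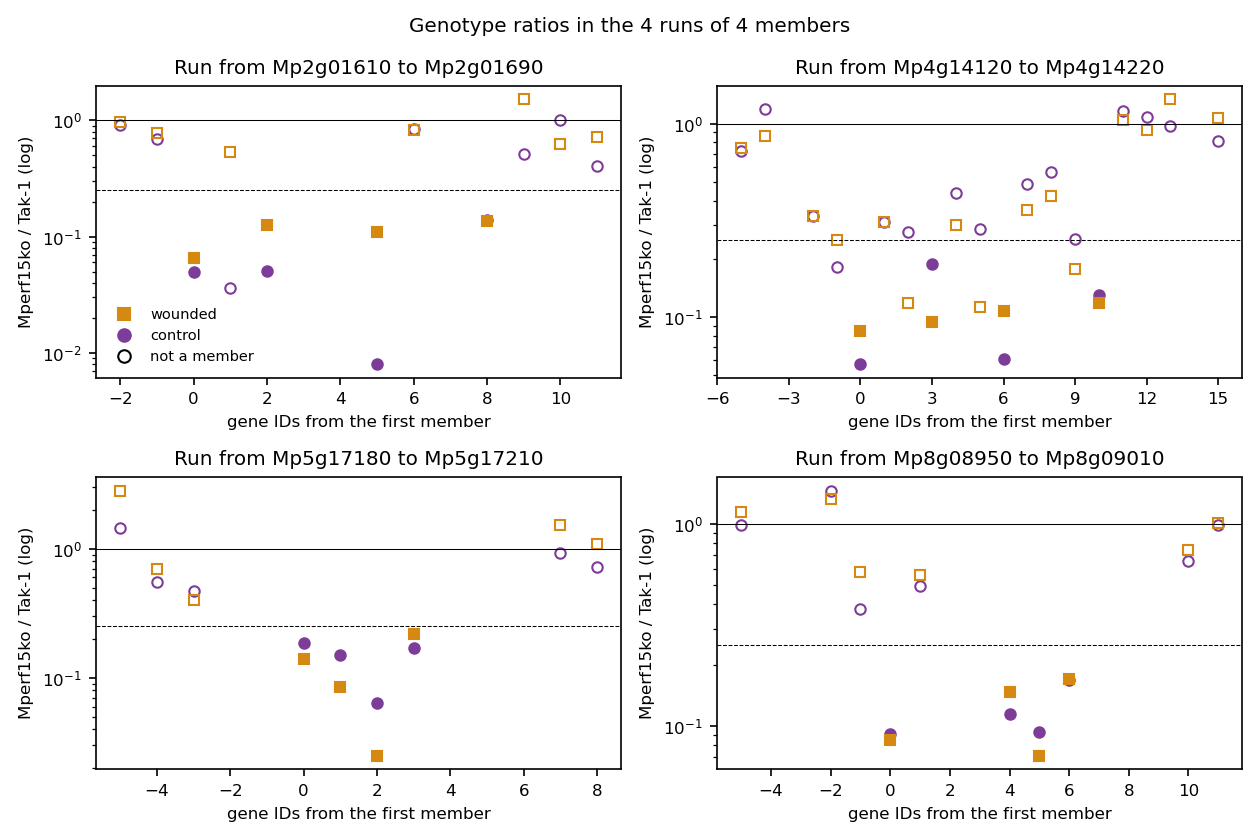
Ratio of mean TPM (Mperf15ko over Tak-1, log axis) against position in gene IDs from the first member, for the 4 runs of 4 members, with wounded thalli as squares, controls as circles, members filled and other expressed genes open. Most open symbols outside the chromosome 4 run lie near 1, and within that run the genes between the members lie below 1 too.

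Similar genes can share reads in the deposited estimates. Summed reads were fractional (more than 0.01 from a whole number) in some library for 65 members (59.1%), compared with 31.9% of expressed genes. The split of reads between near-identical copies is therefore uncertain for those 65, while 45 had whole sums throughout. Among the 65 were all 4 PKS/CHS members (fractional in 11 to 12 libraries), the 4 PR15 members (9 to 11) and the 4 GH19 members (10 to 12). MpHA11 (12 libraries) and MpHA13 (11) were among them too. The levels and ratios given for each of these genes carry that limit. The members had a median longest transcript of 1252 nt against 2292 nt over expressed genes, and 104 (94.5%) had 1 transcript, compared with 80.0% of expressed genes.

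In both genotypes more of the members rose after wounding than fell. The rule did not compare wounded with control thalli, but it bounded the 4 group means that make up the wound responses, with 2 TPM or more in both Tak-1 groups. Of the 110 members 108 could be tested. The filter on low reads removed Mp2g07160 and Mp7g00940. Mp2g26420, with 0 reads in wounded and in control Mperf15ko, passed the filter through Tak-1 alone. Members with few reads in control Mperf15ko could hardly be called lower after wounding there. The counts of calls in Mperf15ko are therefore description. In Mperf15ko 31 members were called higher after wounding and 10 lower, where 23.5% and 20.1% of all 14246 tested genes were called. The count of 10 lower in Mperf15ko was 16 under upper quartile scaling and 15 in DESeq2. In Tak-1, 38 were called higher and 6 lower, where 23.4% and 22.8% of all tested genes were called. Median log2 fold changes were 0.31 in Mperf15ko and 0.42 in Tak-1, compared with -0.015 and -0.045 over all genes. The shares of members were 28.7% higher and 9.26% lower in Mperf15ko and 35.2% higher and 5.56% lower in Tak-1. The count of 6 lower in Tak-1 was 10 without Tak-1 control replicate 1, and 3 without Tak-1 control replicate 2, Tak-1 control replicate 3 or wounded Tak-1 replicate 3.

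Most calls were shared: 30 members were higher in both genotypes and 4 lower in both (Mp1g28830, MpHA13, Mp5g01650 and MpPOD99). Called higher were 1, Mp2g15740, in Mperf15ko alone and 8 in Tak-1 alone, among them MpGH17.10, MpPIN4 and MpLEA-like45. Called lower were 6 in Mperf15ko alone (MpPR4, MpHA11, MpGH16.26, Mp4g08490, Mp5g21660 and Mp7g02900) and 2 in Tak-1 alone (MpCYP829-like15 and MpHA5). No call was in opposite directions. A call in 1 genotype does not show a difference between them. That difference is made of the 2 genotype ratios that the rule bounded, so its counts are description. It was called for 0 members higher and 0 lower, where 0.4% and 0.667% of tested genes were called, with 12 members at an unadjusted p under 0.05. DESeq2 called 4, 2 in each direction, where it called 1.55% of genes higher and 2.2% lower: MpDIR33 and Mp8g04940 with the larger response in Mperf15ko, and MpPKS/CHS12 and MpPIN4 with the larger response in Tak-1. Mp8g04940 had reads in a single Mperf15ko library.

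The fall of MpPR4 in Mperf15ko (-0.69, SE 0.26, adjusted p = 0.045) was lost on leaving out replicate 1 (-0.77) or 3 (-0.53) of the Mperf15ko controls, or any of the wounded Mperf15ko libraries (-0.74, -0.68 and -0.68). The fall of MpHA5 in Tak-1 (-0.77, adjusted p = 0.02) was lost on leaving out replicate 2 (-0.66) or 3 (-0.54) of the Tak-1 controls, or replicate 2 (-0.73) or 3 (-0.68) of wounded Tak-1. The fall of Mp4g08490 in Mperf15ko ended without control replicate 1 (-1.29) or wounded replicate 3 (-1.29) of Mperf15ko. The call of Mp2g15740, with 14 reads in wounded and 0 in control Mperf15ko, ended without any 1 of the Mperf15ko libraries or without wounded Tak-1 replicate 1. The fall of Mp1g28830 in Mperf15ko ended without wounded Mperf15ko replicate 2 (-1.06). Its fall in Tak-1 was lost on leaving out replicate 2 (-0.90) or 3 (-0.40) of the Tak-1 controls, any wounded Tak-1 replicate (-0.69, -0.78 and -0.92), any control Mperf15ko replicate or wounded Mperf15ko replicate 1 (-0.79 in each case). In all, 32 of the 41 calls in Mperf15ko and 33 of the 44 in Tak-1 held under each of the 16 alternatives.

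**Figure D4:**
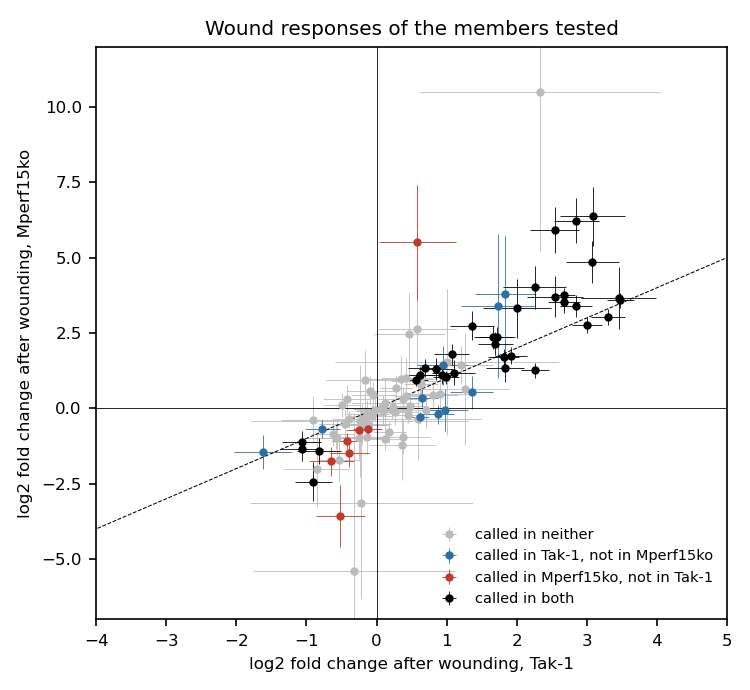
Fitted log2 fold change after wounding in Mperf15ko (y axis) against Tak-1 (x axis) for the 108 members tested, with standard errors as bars and equality dashed. The 30 members higher in both genotypes lie at the upper right. Some are near the dashed line, others well above it, as MpLEA-like37 (6.38 in Mperf15ko and 3.09 in Tak-1), and others below it, as MpPKS/CHS12 (1.26 and 2.26). The gene near 10.5 is Mp8g04940, whose reads came from a single Mperf15ko library.

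Wounded Mperf15ko seldom reached the level of control Tak-1. For 87 of the 110 members all 3 wounded Mperf15ko libraries lay below all 3 control Tak-1 libraries (30.2% of expressed genes), and for 3 they lay above (30.4% of expressed genes). The 3 were Mp5g16220, MpDIR33 and Mp5g21770. By means, 7 members reached or passed control Tak-1: those 3, MpLEA-like12, MpLEA-like37, Mp1g00460 and Mp4g01180. Since the rule held control and wounded Mperf15ko low, these counts are description.

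In 7 members the genotypes overlapped between single libraries: Mp2g07160, Mp2g20200, Mp2g26420, Mp4g07090, Mp6g00940, Mp8g04940 and Mp8g13790. Mp6g00940 had 0, 0 and 134 TPM in wounded Mperf15ko against 46.1, 459 and 394 TPM in wounded Tak-1, and 161, 0 and 6.76 TPM in control Mperf15ko against 771, 237 and 75.7 TPM in control Tak-1. Mp8g13790 had 0, 0 and 8.13 TPM in wounded Mperf15ko against 0, 30.7 and 24.8 TPM in wounded Tak-1. In controls Mp8g13790 had 2.52, 0 and 0 TPM in Mperf15ko against 20.4, 7.67 and 0 TPM in Tak-1. Both genes were high in the same libraries, namely Tak-1 control replicates 1 and 2, wounded Tak-1 replicates 2 and 3, control Mperf15ko replicate 1 and wounded Mperf15ko replicate 3. None of those tested passed either wound test, so leaving them out, an alternative added after seeing the data, did not alter the counts of calls.

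**Figure D5:**
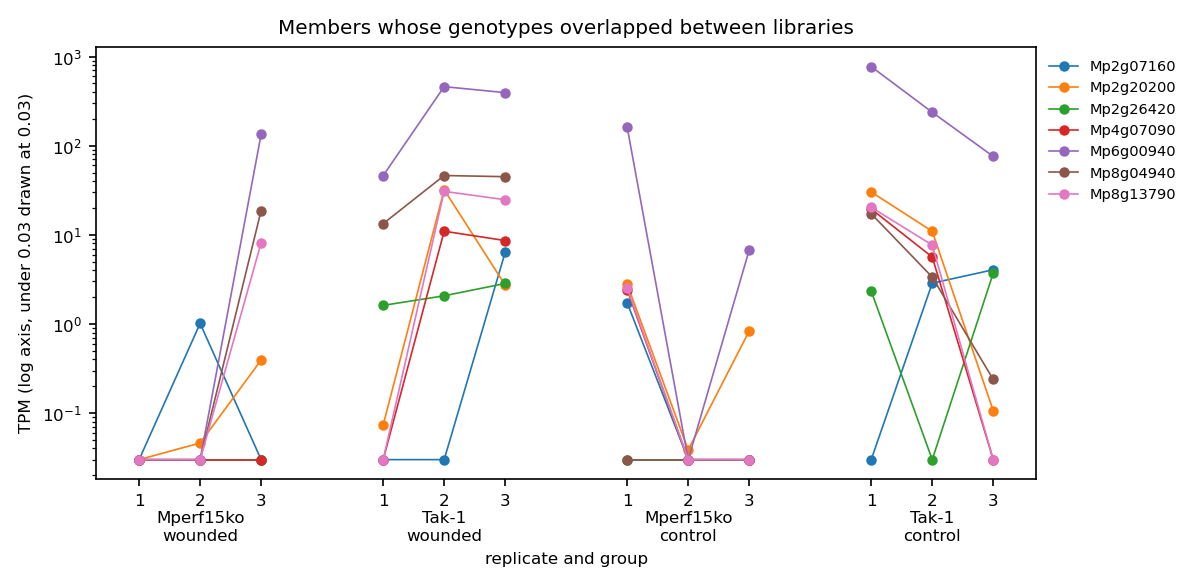
TPM (log axis) of the 7 members whose genotypes overlapped, by replicate within each group. Mp6g00940 runs from 0 to 134 TPM in wounded Mperf15ko and from 75.7 to 771 TPM in control Tak-1, and several lines share their peaks.

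The members varied more among replicates than other genes did. Their median coefficient of variation was 38.2% in wounded Mperf15ko, 18.5% in wounded Tak-1, 41.1% in control Mperf15ko and 26.9% in control Tak-1, compared with 7.83% to 10.5% over expressed genes. The comparison was not matched for level, and the members' median mean level was 1.81 TPM in wounded and 1.02 TPM in control Mperf15ko. The part of low reads in this spread was not tested. Tak-1 control replicate 3 was the highest of its group for 77 members (70%) and for 16.3% of expressed genes. In control Mperf15ko, replicate 1 was the highest for 54 members (49.1%) and for 38.5% of expressed genes. Without Tak-1 control replicate 3 the rule found 102 genes, 97 of them among the 110. The part of these libraries in the ratios beyond that count was not tested.

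Markers of other cell types were compared between genotypes for the same libraries. Of 20 markers 14 had a name in the table and 12 were tested, 4 of them for oil body cells: 4 were lower and 0 higher in wounded Mperf15ko (MpSYP13B, MpKAR, MpC1HDZ and MpABCG1), and 1 lower (MpGCAM1) and 0 higher in control Mperf15ko. Over all tested genes the shares were 11.7% lower and 11.8% higher in wounded thalli and 14.6% lower and 13.6% higher in controls. The markers of oil body cells, which store terpenoids, summed to 17 to 26.4 TPM in wounded Mperf15ko against 28.3 to 35.6 TPM in wounded Tak-1. In controls they summed to 7.87 to 12.6 TPM in Mperf15ko against 11.3 to 17.6 TPM in Tak-1. Most of the wounded sums was MpC1HDZ, with means of 18.5 TPM in wounded Mperf15ko and 26.3 TPM in wounded Tak-1. Its control means were 4.17 TPM in Mperf15ko and 5.25 TPM in Tak-1. The oil body markers MpSYP12B and MpERF13 were not called between genotypes in either condition. Air chamber markers summed to 124 to 128 TPM in wounded Mperf15ko against 116 to 133 TPM in wounded Tak-1. Apical notch markers summed to 13.7 to 15.7 TPM in wounded Mperf15ko against 12 to 12.1 TPM in wounded Tak-1, and gemma cup markers to 9.27 to 12.2 TPM in wounded Mperf15ko against 12.6 to 14.6 TPM in wounded Tak-1, without overlap in either case. In controls apical notch markers summed to 19.7 to 23.5 TPM in Mperf15ko against 18.2 to 20.9 TPM in Tak-1, and gemma cup markers to 9.81 to 13.0 TPM in Mperf15ko against 11.5 to 14.5 TPM in Tak-1. The antheridium markers MpPRM and MpLC7 were at 0 in all Tak-1 libraries. The part of these cells in the members' ratios was not tested.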

How the data were processed

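RNA was measured in 12 libraries, 3 for each genotype and treatment, prepared with the TruSeq Stranded mRNA kit per the labels' protocols. The deposited tables give estimated counts and TPM per transcript, made by the authors with Salmon 0.7.2 after CASAVA, per the submitters' processing notes. The genome build and annotation were not given in the sources used here. Transcript values were summed per gene, giving 19421 genes. Estimated counts were rounded to whole numbers and fitted with edgeR 4.0.16 (R 4.3.3; quasi-likelihood test, TMM scaling, 4 groups in 1 fit, no block). Low-count genes were removed, leaving 14246, and p-values were adjusted by Benjamini-Hochberg over all of them at 0.05. DESeq2 1.42.0, upper quartile scaling, no filter, the replicate number as a block and leaving out each library were the alternatives. The fit was tested on simulated data. Replicate numbers did not pair the samples.

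Symbols came from matching the ID number of each gene to locus tags of a RefSeq table of the female accession Takaragaike-2 (assembly MpTak2_v7.1). A symbol was looked up for 17386 genes (89.5%), and IDs could differ between the assemblies. Of 40 family lists, 26 were written without the deposited values and 14 were added later from the members' symbols. The members and lists were chosen with earlier results of these data known. Genes named were the 25 members with a symbol highest in control Tak-1, all members of the listed families, and the 10 highest members. They were also the 6 with the lowest ratios among members of 10 TPM or more in control Tak-1, the 3 longest runs, the 4 largest wound responses in each direction and genotype, and the 3 genes on each side of the limit. Of 4 runs of equal length the rule took 3. Mp8g09000 and Mp8g09010 of the remaining run, and Mp1g28830, Mp2g15740, Mp2g26420, Mp2g26440, Mp4g01180, Mp4g07090, Mp4g08490, Mp7g00940, Mp8g04940 and Mp8g13790, were chosen after their values were seen.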

Additional observations from a re-analysis of the deposited data

How the results depend on the processing

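The rule itself moved most. A ratio limit of 0.33 gave 175 members, a level of 5 TPM gave 71, and asking the highest Mperf15ko library to meet the limit against the lowest Tak-1 library gave 47. Leaving out 1 library at a time gave 102 to 116 members, 97 to 108 of them among the 110, and 36 to 44 members in runs. Within 20 ID units 27 members were in runs, and within 100 there were 44. Wound calls in Mperf15ko were 28 to 33 higher and 9 to 13 lower without 1 library, and in Tak-1 34 to 42 higher and 3 to 10 lower. The difference between genotypes had 0 to 0 calls in either direction without 1 library, and DESeq2 gave 2 higher and 2 lower. Upper quartile scaling shifted the median of all genes by -0.118 in Mperf15ko and -0.133 in Tak-1. It gave 16 lower calls in Mperf15ko, so that 66.0% of the calls there were higher, compared with 75.6%, and DESeq2 gave 15 lower. It ended the Tak-1 calls of MpCupin37 (0.55), Mp3g17370 (0.81), Mp4g04640 (0.48), Mp5g02100 (0.52) and Mp8g08990 (0.43). Fitting the replicate number as a block gave 30 higher and 10 lower in Mperf15ko, 39 higher and 6 lower in Tak-1 and 0 for the difference. Same-numbered samples correlated at -0.416 to 0.307, with 6 of 18 pairs over 0.1, so the samples share only a number. The block ended the Mperf15ko call of MpDIR51 (1.15). No call changed sign under any alternative run. The causes were not tested. Depth limits genes with few reads in Mperf15ko, where intervals span more than 1 order of magnitude.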
